A study of Mus musculus with 4 samples.

Results

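The genes described here are 34 lysosomal genes: cathepsins and their inhibitor, glycosidases, lipid-handling proteins, membrane proteins, subunits of the proton pump and the regulator Tfeb. They were chosen by name, and each probe set that the platform annotation assigns to 1 of them was taken. This gave 72 probe sets of 33 genes, out of 18193 genes with a probe set of their own on the Affymetrix Mouse Genome 430 2.0 Array, and Cd63 was not analysed here. Total RNA came from 4 stably transfected lines of LMTK-, mouse L cell fibroblasts without thymidine kinase, with 1 array per line. The lines MTf 6 and MTf 4 are clones that carried the expression vector pCI-neo with the cDNA of mouse melanotransferrin, an iron-binding protein held at the cell surface by a lipid anchor. The lines vector 2 and vector 1 carried the same vector without an insert. Each melanotransferrin line is 1 clone. The labels leave unstated how the vector lines were isolated, and p-values reflect only the spread among these 4 lines, which may be technical in part. The comparison asks which transcripts differ when melanotransferrin is overexpressed.

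Lysosomes are acidic organelles that break down material taken up from outside the cell or delivered by autophagy. Soluble hydrolases are made in the endoplasmic reticulum, tagged with mannose 6-phosphate and sorted to the lysosome, where a proton pump keeps the pH low enough for them to work. Many of their genes carry an E-box with the core CACGTG near the start, which the transcription factor TFEB and its relatives bind when nutrients are scarce or lysosomes are stressed. Fibroblasts depend on these enzymes to turn over collagen and other matrix that they take up, and cultured fibroblasts secrete part of them.

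The core E-box was looked up in the promoter sequences of these genes (RefSeq, build GRCm38.p6, 250 bases before to 50 after each annotated start). The letters CACGTG read the same on both strands. They were found for 11 of the 30 members that had a promoter in the table, 36.7%, against 8.09% of the 27025 genes in the table. The longer TCACGTGA, which contains the core, was found for 5 members (16.7%, against 1.12% of all genes). A still longer form was also looked up, with G before and C after these letters. It was found for 0 of the 30 members, against 0.37% of the 27025 genes. At so low a share, 0 of 30 cannot be told from the background. The members with the core were Ctsf, Ctsl, Ctsd, Ctsa, Lgmn, Glb1, Gaa, Gla, Lamp1, Mcoln1 and Atp6v0d1. A match describes the letters and does not show that a factor binds there. The 110 bases before the annotated start are printed for 5 members with the core in that stretch and for Scarb2, whose promoter held none and whose levels ran opposite to most members. They were picked after the values were seen. Each reads 5′ to 3′ on the strand of its gene, and capitals mark the core.
Lamp1 (chr8:13159051-13159160, plus strand): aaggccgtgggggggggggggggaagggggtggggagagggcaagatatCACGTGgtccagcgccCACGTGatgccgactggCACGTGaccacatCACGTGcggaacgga
Mcoln1 (chr8:3500409-3500518, plus strand): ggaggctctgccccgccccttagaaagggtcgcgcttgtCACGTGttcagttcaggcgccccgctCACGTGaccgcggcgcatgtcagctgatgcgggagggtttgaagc
Ctsd (chr7:142387828-142387937, minus strand): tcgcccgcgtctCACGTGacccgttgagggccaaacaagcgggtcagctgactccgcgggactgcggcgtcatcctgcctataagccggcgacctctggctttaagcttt
Glb1 (chr9:114400968-114401077, plus strand): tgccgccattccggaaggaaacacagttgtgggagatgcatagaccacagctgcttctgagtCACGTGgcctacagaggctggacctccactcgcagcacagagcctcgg
Lgmn, 1 of its 2 annotated starts (chr12:102439093-102439202, minus strand): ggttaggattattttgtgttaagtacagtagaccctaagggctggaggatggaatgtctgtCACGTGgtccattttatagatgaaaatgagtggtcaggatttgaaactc
Scarb2 (chr5:92505658-92505767, minus strand): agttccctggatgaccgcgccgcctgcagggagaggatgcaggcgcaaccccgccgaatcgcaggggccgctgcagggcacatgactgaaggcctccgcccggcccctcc
Lamp1 carried the core 4 times in this stretch and Mcoln1 2 times. In Ctsd, Glb1 and Lgmn it occurred 1 time.

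All values are array signals on a linear scale, with every array scaled to the same trimmed mean of 1000.01. A signal is therefore relative to the whole array, and a change in total RNA per cell cannot be seen. Fewer cells of a kind and less RNA per cell cannot be told apart. The ratio of 3′ to 5′ signal of the Actb control probe sets lay between 1.21 and 1.31 over the 4 arrays. Meltf, the gene of melanotransferrin, had signals of 1885 in MTf 6 and 1519 in MTf 4, against 274 in vector 2 and 265 in vector 1. Both clones were above both vector lines, by 2.52 on the log2 scale (SE 0.24, 95% interval 1.96 to 3.07), with an adjusted p = 0.0903 from limma over all probe sets. Of 8 fibroblast markers 7 were bright enough to be tested, among them Vim, Fn1, Col1a2 and Sparc, and only Thy1 was not. The summed signal of the fibroblast list lay between 155384 and 221609 in the 4 lines. That of 6 macrophage markers, Csf1r, Adgre1, Ptprc, Cd14, Itgam and Lyz2, lay between 1194 and 2018. Of these 3 passed the filter on dim signals, Csf1r, Lyz2 and Adgre1. Csf1r had signals of 289 in MTf 6 and 762 in MTf 4, against 512 in vector 2 and 698 in vector 1. Lyz2 had 466 in MTf 6 and 767 in MTf 4, against 275 in vector 2 and 626 in vector 1. Adgre1 had 279 in MTf 6 and 229 in MTf 4, against 321 in vector 2 and 312 in vector 1. Ptprc, which all white blood cells carry, did not pass the filter. It had signals of 7.3 in MTf 6 and 88.8 in MTf 4, against 35.1 in vector 2 and 87.7 in vector 1. Of 5 osteoclast markers only Mmp9 passed the filter, and of 4 melanocyte markers 0 did.

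No lysosomal gene passed the test between the melanotransferrin clones and the vector lines. Of the members, 53 probe sets of 29 genes were bright enough to enter the test, and 0 passed. The median log2 difference, clones minus vector lines, was 0.0093 over the 29 genes, each taken by its brightest probe set, against -0.0055 over all 10682 genes tested. Of the 29 genes 15 were higher and 14 lower in the clones, and 49% of all tested genes were higher. The difference that the members did show ran within each kind of line. MTf 6 was below MTf 4 for 25 of the 29 genes, against 54.3% of all tested genes. Vector 2 was above vector 1 for 26 of the 29, against 53.4%. These counts were chosen after the values were seen, and with 1 array per line they have no replicate check.

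The test was limma on log2(signal + 32), with Benjamini-Hochberg adjustment over 22519 probe sets and a threshold of 0.05, and differences on this scale understate changes of dim probe sets. Its calls made up 0.00444% of all probe sets tested, a single one that is no member. At an unadjusted p under 0.05, 0 member probe sets were higher in the clones, where 1.04% of all probe sets were. On the same terms 1 was lower, of Gla, where 0.861% of all probe sets were. Both clones lay above both vector lines for 1 of 53 member probe sets, of Lamp2, a share of 1.89% against 12.2% of all probe sets. Both clones lay below both vector lines for 3, of Gla, Ctsa and the second probe set of Atp6v1h, a share of 5.66% against 13.6%. An exact permutation test, two-sided, could not go below p = 0.333 with 2 lines of each kind. The 95% intervals of the 29 genes spanned a median of 1.09 on the log2 scale, a half-width of 1.46-fold, so differences below that size could not be told from none at the median gene. These intervals are not adjusted for the number of probe sets, and the adjusted test asked for larger differences. Meltf, at a log2 difference of 2.52, did not pass it (adjusted p = 0.0903 from limma). Member differences well above 1.46-fold could therefore also have been missed.

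**Figure D1:**
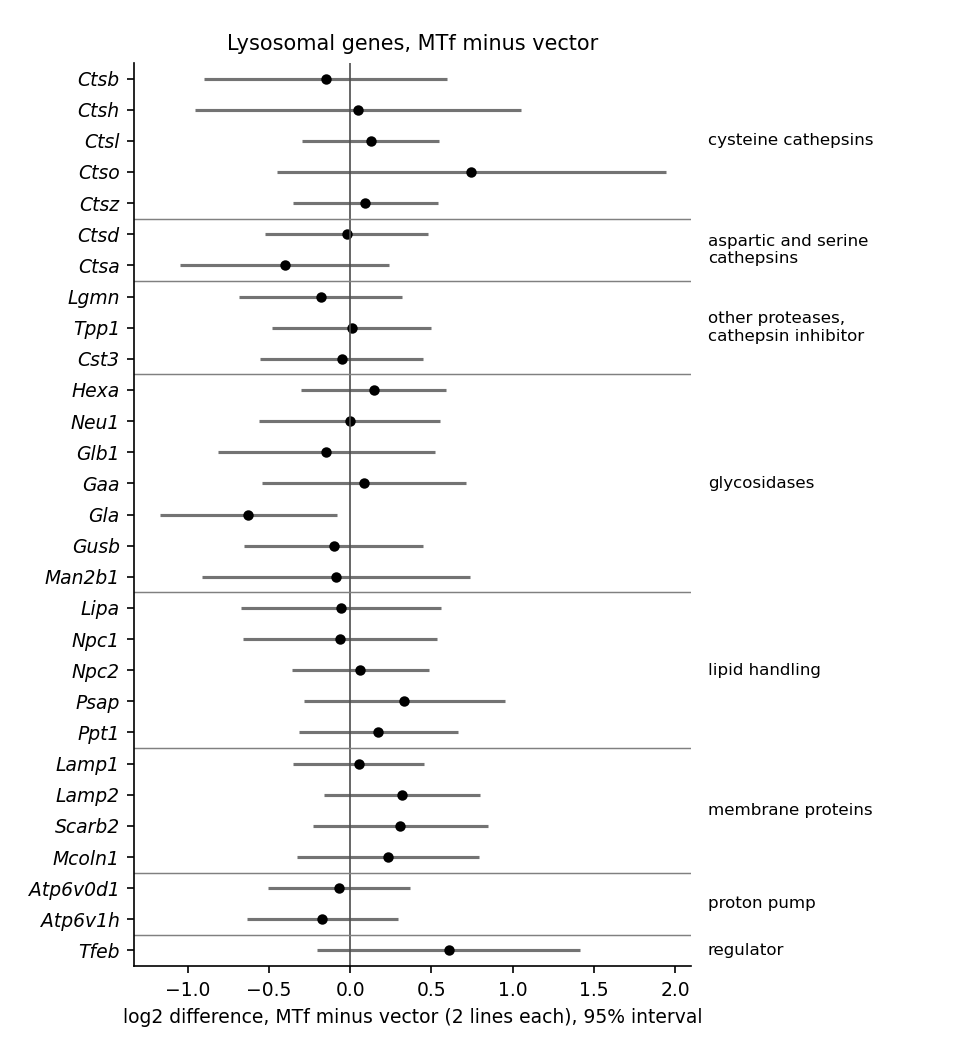
Log2 difference between the MTf clones and the vector lines (2 lines each) for the 29 tested lysosomal genes, each by its brightest probe set and grouped by role. Points are differences on the log2(signal + 32) scale and lines are 95% intervals of the limma fit. The interval includes 0 for every gene shown but Gla, at -0.63 (interval -1.17 to -0.08), and Gla did not pass the adjusted test.

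All 5 tested cysteine cathepsins were lower in MTf 6 than in MTf 4 and higher in vector 2 than in vector 1, with medians of -0.92 and 0.60 on the log2 scale. Ctso, which encodes cathepsin O, had signals of 833 in MTf 6 and 1969 in MTf 4, against 1225 in vector 2 and 459 in vector 1. Its difference between clones and vector lines was 0.74 (95% interval -0.45 to 1.94), while MTf 6 minus MTf 4 was -1.21 and vector 2 minus vector 1 was 1.36. MTf 4 was the highest line and vector 1 the lowest, with MTf 6 below vector 2, so the kinds of line overlapped.

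Ctsh, which encodes cathepsin H, an aminopeptidase, had signals of 688 in MTf 6 and 1663 in MTf 4, against 1363 in vector 2 and 786 in vector 1. Ctsb, which encodes cathepsin B, one of the main lysosomal proteases of fibroblasts, had signals of 23929.6 in MTf 6 and 45366 in MTf 4, against 45116 in vector 2 and 29733 in vector 1. For both genes MTf 4 and vector 2 were high, and MTf 6 was lowest. The differences between clones and vector lines were 0.05 (95% interval -0.95 to 1.05) for Ctsh and -0.15 (95% interval -0.90 to 0.59) for Ctsb. All 5 tested probe sets of Ctsb were lower in MTf 6 than in MTf 4, by log2 differences of -0.06 to -1.51. All 5 were also higher in vector 2 than in vector 1, by 0.40 to 0.94.

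Ctsl and Ctsz varied less. Ctsl, which encodes the endopeptidase cathepsin L, had signals of 42064 in MTf 6 and 49781 in MTf 4, against 47184 in vector 2 and 37279 in vector 1, a difference of 0.13 (95% interval -0.30 to 0.55) between clones and vector lines. Ctsz, which encodes the carboxypeptidase cathepsin Z, had signals of 31155 in MTf 6 and 32414 in MTf 4, against 34991 in vector 2 and 25378 in vector 1, a difference of 0.09 (95% interval -0.35 to 0.54). Vector 1 was the lowest line for both.

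The 4 remaining cysteine cathepsins, Ctsc, Ctsf, Ctsk and Ctss, were dim and were not tested. Cathepsin C activates the serine proteases of immune granules, cathepsin K is the collagenase of osteoclasts, and cathepsin S trims antigens in antigen-presenting cells. The single probe set of Ctss had signals of 105 in MTf 6 and 22.8 in MTf 4, against 15.4 in vector 2 and 93.7 in vector 1. The single probe set of Ctsk had signals of 147 in MTf 6 and 131 in MTf 4, against 121 in vector 2 and 62.8 in vector 1. The 3 probe sets of Ctsc reached from 5.8 to 156.6 over the 4 lines and the 2 of Ctsf from 18.7 to 151.4. All of these stayed below the filter, a mean signal of about 196.

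Of the other proteases, the aspartic cathepsin D and legumain were both lower in MTf 6 than in MTf 4 and higher in vector 2 than in vector 1. Ctsd had signals of 7931 in MTf 6 and 11148 in MTf 4, against 10373 in vector 2 and 8803 in vector 1, with a difference between clones and vector lines of -0.02 (95% interval -0.53 to 0.48). Lgmn, which encodes legumain, a protease that cuts after asparagine and matures several cathepsins, had signals of 6227 in MTf 6 and 7827 in MTf 4, against 9134 in vector 2 and 6877 in vector 1, a difference of -0.18 (95% interval -0.68 to 0.32). In both genes MTf 6 was the lowest line.

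Tpp1, which encodes tripeptidyl peptidase 1, had signals of 16447 in MTf 6 and 20670.4 in MTf 4, against 21332 in vector 2 and 15731 in vector 1. Cst3, which encodes cystatin C, a secreted inhibitor of cysteine cathepsins, had signals of 18067 in MTf 6 and 24868 in MTf 4, against 24920.4 in vector 2 and 19399.5 in vector 1. In both genes MTf 4 and vector 2 were above MTf 6 and vector 1 by the brightest probe set, as in Ctsb and Ctsh. The second tested probe set of Tpp1 was high in MTf 4 alone. It read 3775 in MTf 4, against 2486 in MTf 6, 2503 in vector 2 and 2467.5 in vector 1. By the brightest probe set, the difference between clones and vector lines was 0.0093 (95% interval -0.48 to 0.50) for Tpp1. For Cst3 it was -0.05 (95% interval -0.55 to 0.45). The second tested probe set of Tpp1 gave 0.30.

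Ctsa, which encodes cathepsin A, a carboxypeptidase that also protects β-galactosidase and sialidase from breakdown, had a different order. Its brighter probe set had signals of 434 in MTf 6 and 319 in MTf 4, against 518 in vector 2 and 488 in vector 1. Both clones were below both vector lines, with a difference of -0.40 (95% interval -1.05 to 0.24, adjusted p = 1.00 from limma), which did not pass. Its other probe set lay between 7.6 and 49.8 and was not tested, so this value rests on 1 probe set.

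The glycosidases, which remove sugars from glycans, glycolipids and glycogen, all had the same order within each kind of line by their brightest probe sets. For 7 of 7 genes MTf 6 was below MTf 4 and vector 2 above vector 1. Between the clones the second tested probe set of Gusb went the other way, at 0.16, against -0.04 by the brightest. Median log2 differences were -0.29 for MTf 6 minus MTf 4 and 0.55 for vector 2 minus vector 1. The median between clones and vector lines was -0.09, with 2 genes above 0 and 5 below it.

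Gla, which encodes α-galactosidase A, whose loss causes Fabry disease, was the member with the smallest unadjusted p, 0.029. Its signals were 1264 in MTf 6 and 1316 in MTf 4, against 2384 in vector 2 and 1697 in vector 1. Both clones were below both vector lines, with a difference of -0.63 (SE 0.23, 95% interval -1.17 to -0.08) and an adjusted p = 1.00 from limma, so it did not pass. Its second tested probe set had signals of 515 in MTf 6 and 1069 in MTf 4, against 1081 in vector 2 and 794 in vector 1, where the kinds of line overlapped and the difference was -0.31.

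Man2b1, which encodes lysosomal α-mannosidase, had signals of 1823 in MTf 6 and 3753 in MTf 4, against 3378 in vector 2 and 2293 in vector 1. Glb1, which encodes β-galactosidase, had signals of 1949 in MTf 6 and 2530.1 in MTf 4, against 3194 in vector 2 and 1895 in vector 1. Gaa, which encodes the acid α-glucosidase that degrades glycogen, had signals of 3939 in MTf 6 and 5643 in MTf 4, against 5469 in vector 2 and 3602 in vector 1. In all 3 genes MTf 4 and vector 2 were above MTf 6 and vector 1, and the kinds of line overlapped. Their differences between clones and vector lines were -0.09 for Man2b1, -0.15 for Glb1 and 0.09 for Gaa.

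The remaining glycosidases were lowest in vector 1. Hexa, the α subunit of β-hexosaminidase, had signals of 12018 in MTf 6 and 14723 in MTf 4, against 13299 in vector 2 and 10887 in vector 1. Gusb, which encodes β-glucuronidase, had signals of 3458 in MTf 6 and 3559 in MTf 4, against 4628 in vector 2 and 3060.4 in vector 1. Neu1, which encodes the lysosomal sialidase, had signals of 1217 in MTf 6 and 1307 in MTf 4, against 1497 in vector 2 and 1068 in vector 1. Differences between clones and vector lines were 0.14 for Hexa, -0.10 for Gusb and -0.0041 for Neu1, and the kinds of line overlapped in all 3.

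**Figure D2:**
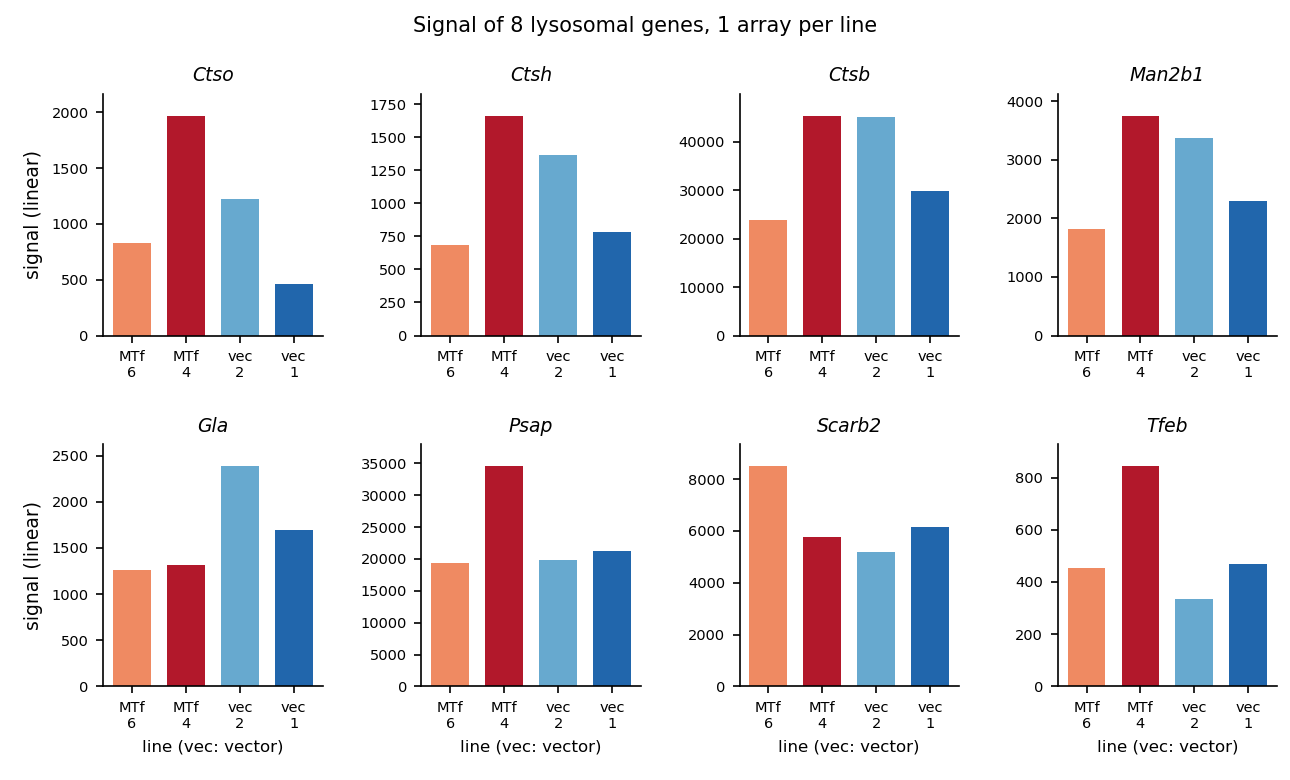
Linear signal in each of the 4 lines (1 array each, no replicate of a line) for 8 lysosomal genes, each by its brightest probe set, with an axis from 0 per gene. Ctso, Ctsh, Ctsb and Man2b1 were highest in MTf 4 and higher in vector 2 than in vector 1, while Gla, Psap, Scarb2 and Tfeb each had another order of lines.

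Among the genes for lipid handling, Lipa, Npc2 and Npc1 had their highest signals in MTf 4 and vector 2, though Npc1 differed little between the vector lines, and Psap and Ppt1 did not share this order. Lipa, which encodes lysosomal acid lipase, the enzyme that frees cholesterol from the esters of low-density lipoprotein, had signals of 2365 in MTf 6 and 3434 in MTf 4, against 3539 in vector 2 and 2489 in vector 1. Its 2 other tested probe sets had log2 differences of -1.15 and -1.23 for MTf 6 minus MTf 4, against -0.53 for the brightest one. Npc2 carries the freed cholesterol to Npc1, which passes it out of the lysosome. Npc2 had signals of 30487 in MTf 6 and 37246 in MTf 4, against 35496 in vector 2 and 29374 in vector 1, and Npc1 signals of 558 in MTf 6 and 777 in MTf 4, against 693 in vector 2 and 686 in vector 1. Differences between clones and vector lines were -0.06 (95% interval -0.67 to 0.56) for Lipa, 0.06 for Npc2 and -0.06 for Npc1. Of 8 tested genes of cholesterol synthesis and uptake, 0 passed and all 8 lay below 0 for clones minus vector lines (median -0.27). In MTf 4 that list stood lowest, at a median of -0.31 from the mean of the 4 lines. Its part in the values of Lipa, Npc1 and Npc2 was not tested.

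Psap encodes prosaposin, the precursor of the saposins that help hydrolases reach glycolipids. Its signals were 19336 in MTf 6 and 34523 in MTf 4, against 19827 in vector 2 and 21198 in vector 1, high in MTf 4 alone. MTf 6 minus MTf 4 was -0.84, vector 2 minus vector 1 was -0.10, and the clones minus the vector lines 0.33 (95% interval -0.28 to 0.95). Without MTf 4 the difference between clones and vector lines was -0.08. The second tested probe set of Psap was also high in MTf 4 alone, with differences of -0.72 between the clones and -0.12 between the vector lines. Psap lies on chromosome 10, whose 512 tested genes had medians of 0.16 for clones minus vector lines and -0.33 for vector 2 minus vector 1. The part of the chromosome in the value of Psap was not tested.

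Ppt1 encodes a thioesterase that removes palmitate from proteins. By its brightest probe set, signals were 5094 in MTf 6 and 4938 in MTf 4. They were 5188 in vector 2 and 3812 in vector 1, low in vector 1 alone. By its second tested probe set they were 3094 in MTf 6 and 2275.5 in MTf 4. The vector lines read 3116 (vector 2) and 2043 (vector 1) there, so MTf 4 was low as well. Ppt1 lies on chromosome 4, whose 641 tested genes had a median of 0.26 for MTf 6 minus MTf 4. For Ppt1 that difference was 0.04 by the brightest probe set and 0.44 and -0.19 by the others tested. The median over members was -0.33. The part of the chromosome in the value of Ppt1 was not tested.

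By their brightest probe sets, all 4 tested membrane proteins had values above 0 for the clones minus the vector lines. The median log2 difference was 0.27, and 0 of them passed, while 49% of all tested genes were above 0. With the mean of all tested probe sets of a gene, differences were 0.089 for Lamp2, 0.052 for Lamp1, 0.17 for Mcoln1 and 0.14 for Scarb2. Lamp2, one of the 2 most abundant glycoproteins of the lysosomal membrane, had signals of 12436 in MTf 6 and 17569 in MTf 4, against 12224 in vector 2 and 11467 in vector 1 by its brightest probe set, with both clones above both vector lines and a difference of 0.32 (95% interval -0.16 to 0.80). Its 3 other tested probe sets had differences of -0.00069, 0.04 and -0.0015, so the separation was seen with 1 of 4 probe sets. Lamp1, the other of these glycoproteins, had signals of 17135 in MTf 6 and 19674 in MTf 4, against 19129 in vector 2 and 16404 in vector 1, a difference of 0.05 (95% interval -0.35 to 0.46).

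Mcoln1 encodes the lysosomal calcium channel mucolipin 1. Its signals were 782 in MTf 6 and 1038 in MTf 4, against 784 in vector 2 and 742 in vector 1, highest in MTf 4 and within a narrow band in the other 3 lines. Its difference between clones and vector lines was 0.23 (95% interval -0.33 to 0.79).

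Scarb2 encodes LIMP-2, a membrane protein that carries glucocerebrosidase to the lysosome. Its signals were 8489.5 in MTf 6 and 5778 in MTf 4, against 5182 in vector 2 and 6156 in vector 1, and by its second tested probe set 7045 in MTf 6 and 4169 in MTf 4, against 5259 in vector 2 and 5819.9 in vector 1. Both probe sets were highest in MTf 6 and lower in vector 2 than in vector 1, the reverse of most members. MTf 6 minus MTf 4 was 0.55 and 0.75 by the 2 probe sets, and vector 2 minus vector 1 was -0.25 and -0.15. Their differences between clones and vector lines, 0.31 (95% interval -0.23 to 0.85) and -0.03, did not pass.

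The proton pump and the regulator did not share one pattern. Atp6v0d1, a subunit of the membrane part of the pump, had signals of 10323 in MTf 6 and 11595 in MTf 4, against 12843 in vector 2 and 10284 in vector 1, and Atp6v1h, a subunit of the cytosolic part, signals of 2742 in MTf 6 and 2621 in MTf 4, against 3337 in vector 2 and 2741 in vector 1. Vector 2 was the highest line for both, and the differences between clones and vector lines were -0.07 (95% interval -0.51 to 0.36) and -0.17 (95% interval -0.64 to 0.29).

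Tfeb encodes the factor that switches on lysosomal genes through the core E-box, largely by moving into the nucleus, which RNA levels do not show. Its signals were 455 in MTf 6 and 843 in MTf 4, against 335 in vector 2 and 471 in vector 1. MTf 4 was the highest line, and vector 2, in which most members were high, was the lowest. The clones minus the vector lines came to 0.61 (95% interval -0.21 to 1.42, adjusted p = 1.00 from limma), which did not pass. This value rested in large part on MTf 4, and without it the difference was 0.18.

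The order of lines within each kind was then counted over all members, a count chosen after the values were seen. MTf 6 was below MTf 4 for 25 of 29 genes, 86.2%, against 54.3% of all tested genes. Vector 2 was above vector 1 for 26 of 29, 89.7%, against 53.4%. Both held for 23 of 29, 79.3%, against 35.7% of all tested genes. The median log2 difference over members was -0.33 for MTf 6 minus MTf 4, against -0.05 over all tested genes, and 0.36 for vector 2 minus vector 1, against 0.03. Each line was measured on 1 array, so these differences have no replicate check, and the 29 genes, read from shared arrays, are no replicates.

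**Figure D3:**
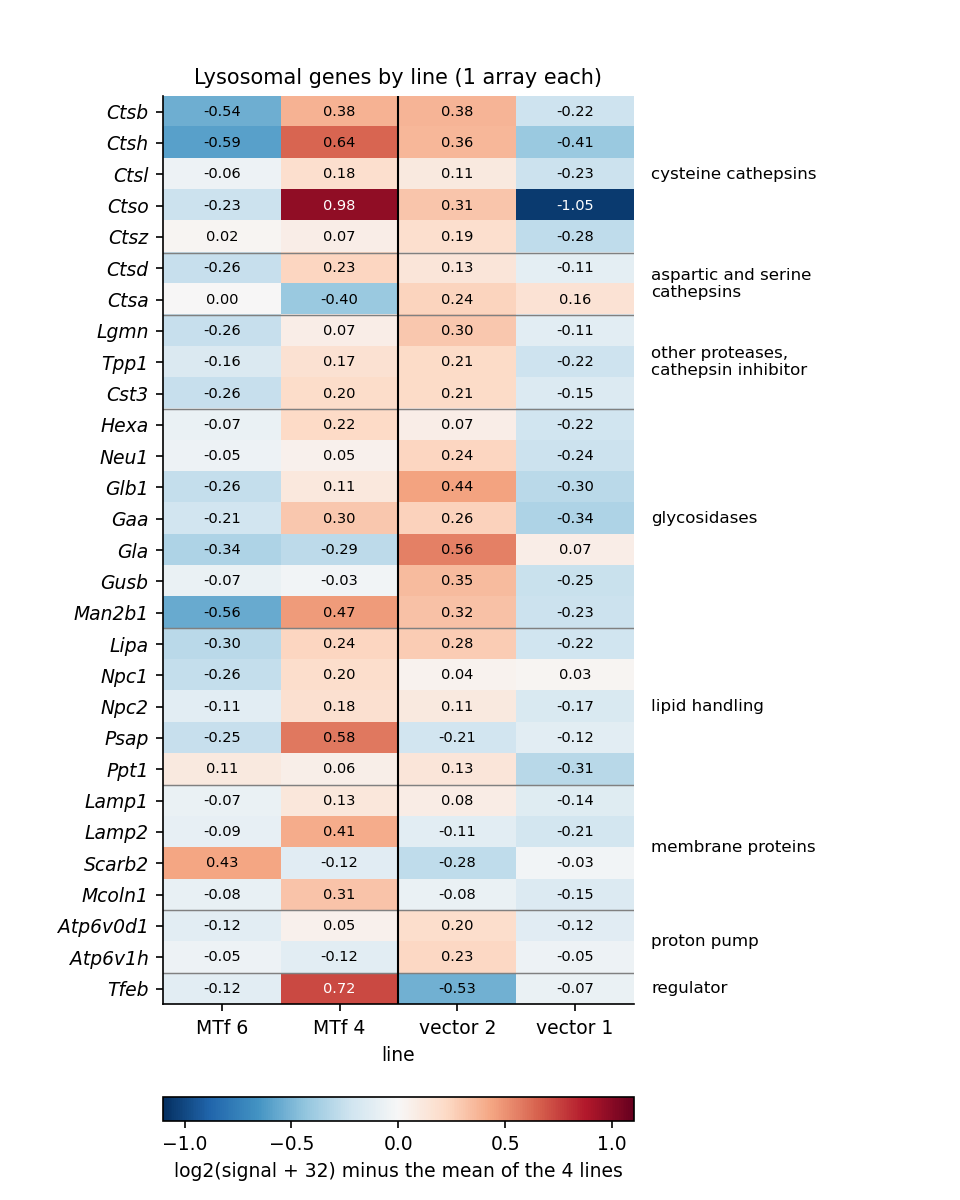
Deviation of log2(signal + 32) from the mean of the 4 lines, for the 29 tested lysosomal genes (rows, by role) in each line (columns, 1 array each). Red is above the mean and blue below it. Most rows are red in MTf 4 and vector 2 and blue in MTf 6 and vector 1, while Scarb2 is red in MTf 6 and Tfeb blue in vector 2.

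Some members did not share this order. Tfeb and Psap were lower in MTf 6 than in MTf 4 but also lower in vector 2 than in vector 1. Ppt1, Atp6v1h and Ctsa were higher in MTf 6 than in MTf 4 and higher in vector 2 than in vector 1. Scarb2 alone ran the other way in both pairs. Across the 29 members the 2 pair differences correlated at r = -0.36 (Spearman's rho -0.25), and across all 10682 tested genes at r = -0.34 (rho -0.36). Genes are not independent replicates here, and no array is shared between the pairs. MTf 4 was the highest line for 15 members and vector 2 for 13, and Scarb2 was highest in MTf 6. Vector 1 was the lowest line for 15 and MTf 6 for 10.

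Probe sets that differed by at least 2-fold on the same scale were counted as well. MTf 6 was at least 2-fold below MTf 4 for 9 of 53 member probe sets, 17%, against 3.34% of all probe sets tested. These were 2 of Ctsb, 2 of Lipa and 1 each of Ctsh, Ctso, Man2b1, Gla and Npc2, and only those of Ctsh, Ctso and Man2b1 were the brightest of their gene. Taken by the brightest probe set, 3 of 29 genes were at least 2-fold lower in MTf 6, 10.3%, against 3.47% of all tested genes. MTf 6 was at least 2-fold above MTf 4 for 0 member probe sets, against 1.43%. Vector 2 was at least 2-fold above vector 1 for 1, of Ctso, a share of 1.89% against 1.79%, which is near the background. It was at least 2-fold below vector 1 for 0, against 1.55%.

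**Figure D4:**
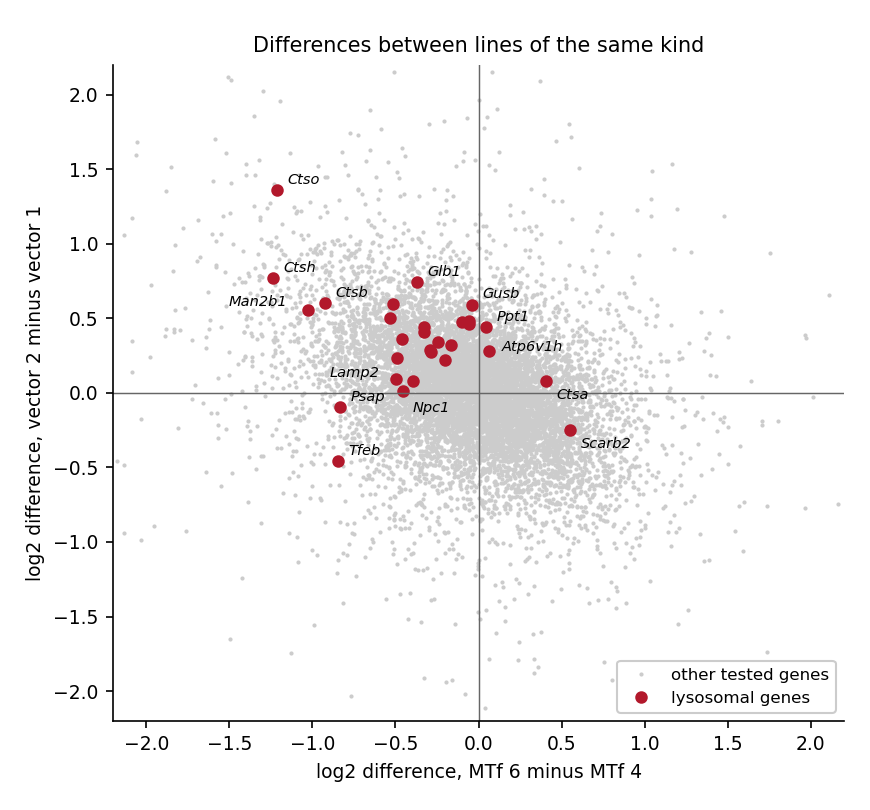
Log2 difference between the 2 clones (MTf 6 minus MTf 4, horizontal axis) and between the 2 vector lines (vector 2 minus vector 1, vertical axis), both on the log2(signal + 32) scale, for lysosomal genes (red) and other tested genes (grey, 52 lie beyond the axes). Of 29 lysosomal genes 23 lie at the upper left, with Ctso, Ctsh, Man2b1 and Ctsb farthest out, and only Scarb2 lies in the lower right.

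Probe sets of the same gene mostly had the same order within each kind of line. For 15 members 24 further probe sets were tested. In 20 of them MTf 6 minus MTf 4 had the sign of the brightest probe set, and in 20 vector 2 minus vector 1 did. For the clones minus the vector lines 16 of 24 had the same sign. The median residual spread within kinds of line was 0.26 on the log2 scale over the members and 0.22 over all tested genes.

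Members with and without the core E-box can be set side by side. Over 10 tested members with CACGTG in the promoter table the median was -0.29 for MTf 6 minus MTf 4, and over 15 tested members without it -0.33. For vector 2 minus vector 1 the medians were 0.33 and 0.44 in this order. Lamp1, with 4 copies in the stretch printed above, had differences of -0.20 and 0.22, and Mcoln1, with 2, had -0.39 and 0.08. These are descriptions of 25 genes and were not tested.

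Of 21 further lysosomal hydrolases and activators tested, 19 were lower in MTf 6 than in MTf 4 and also higher in vector 2 than in vector 1. Between clones and vector lines 0 passed, 9 stood above 0 and 12 below it (median -0.01). MTf 6 was below MTf 4 for 20 of the 21, with a median of -0.40, and vector 2 was above vector 1 for 20, with a median of 0.38. Gm2a, the activator that presents a ganglioside to hexosaminidase, had signals of 801 in MTf 6 and 1183 in MTf 4, against 835 in vector 2 and 635 in vector 1. Galc, which encodes galactosylceramidase, had signals of 1116 in MTf 6 and 1454 in MTf 4, against 1684 in vector 2 and 1328 in vector 1. The 2 had the smallest unadjusted p of that list, and neither passed.

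Further membrane proteins and transporters, 14 genes, had a median of 0.00074 between clones and vector lines, -0.34 for MTf 6 minus MTf 4 and 0.13 for vector 2 minus vector 1. Among them Tmem192, which sits in the lysosomal membrane, had signals of 4828 in MTf 6 and 5242 in MTf 4, against 5834 in vector 2 and 6255 in vector 1, and Ostm1, the partner of a lysosomal chloride transporter, signals of 4227 in MTf 6 and 5683 in MTf 4, against 3607 in vector 2 and 4758 in vector 1. Neither passed. Other subunits of the proton pump, 14 genes, had medians of -0.0093, 0.05 and 0.08 for the same 3 differences, so within each kind of line they lay nearer to 0 than the hydrolases. Of these Tcirg1 had a difference of 0.29 between clones and vector lines and Atp6v1c1 of -0.20, and 0 of the 14 passed.

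Genes of sorting to the lysosome showed no call in 10 genes, with medians of 0.02, -0.18 and 0.16 for the same 3 differences. Sort1, which encodes the sorting receptor sortilin, had signals of 306 in MTf 6 and 241 in MTf 4, against 505 in vector 2 and 404 in vector 1. Each clone was below each vector line, with a difference of -0.67 (95% interval -1.36 to 0.01), which did not pass. Gga3, a coat protein of the route from the Golgi, had signals of 868 in MTf 6 and 5376 in MTf 4, against 3922 in vector 2 and 3289.6 in vector 1, low in MTf 6 alone, with a difference of -0.72 (95% interval -2.34 to 0.90) that was 0.58 without MTf 6. Without MTf 4 it was -2.01 (adjusted p = 0.00565 from limma), a fit in which MTf 6 stood alone for the clones.

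Regulators of lysosomal genes other than Tfeb, 10 genes, had a median of 0.03 between clones and vector lines, and 0 passed. Fnip1 and Flcn, partners in a complex that holds TFEB and TFE3 in the cytosol, had differences of -0.39 (95% interval -0.86 to 0.08) and -0.23 (95% interval -0.66 to 0.20). For both genes each clone was below each vector line by the brightest probe set, as for 13.6% of all probe sets tested. With the mean of all tested probe sets of a gene, the differences were -0.24 for Fnip1 and -0.11 for Flcn. Further cathepsin inhibitors, 4 genes, had a median of 0.10, with Cst6, which encodes cystatin M, at -0.54 (95% interval -1.23 to 0.14) and Serpinb6a, a serine protease inhibitor, at 0.17. Again 0 passed.

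Of 13 autophagy genes 9 were lower in MTf 6 than in MTf 4 and also higher in vector 2 than in vector 1. Taken singly, 10 were lower in MTf 6 than in MTf 4, with a median of -0.33, and 12 were higher in vector 2 than in vector 1, with a median of 0.34. The median between clones and vector lines was 0.07, with 7 genes above 0 and 6 below it, and 0 passed. Atg5, which acts in forming autophagosomes, had a difference of 0.42 (95% interval -0.25 to 1.08) and Becn1, of the lipid kinase complex that starts them, of -0.23 (95% interval -0.64 to 0.18). With the mean of all tested probe sets of a gene they were 0.24 for Atg5 and -0.21 for Becn1. Atg5 lies on chromosome 10 and had -0.71 for vector 2 minus vector 1, where the median of that chromosome was -0.33. The part of the chromosome in the value of Atg5 was not tested.

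Other gene groups also differed between lines of the same kind. All 12 tested genes of DNA replication were higher in MTf 6 than in MTf 4, with a median of 0.68, and lower in vector 2 than in vector 1, with a median of -0.84, opposite in sign to the lysosomal genes in both pairs. For clones minus vector lines all 12 lay below 0, with a median of -0.25. Rrm2, of nucleotide supply, had signals of 23577 in MTf 6 and 16959.8 in MTf 4, against 21225 in vector 2 and 28391 in vector 1, and Pold1, a DNA polymerase subunit, signals of 2338 in MTf 6 and 2127 in MTf 4, against 2360.0 in vector 2 and 3410.1 in vector 1. Genes of the interferon response, 11 in all, stood at a median of 0.75 from the mean of the 4 lines in MTf 4 and at -0.16, -0.16 and -0.33 in MTf 6, vector 2 and vector 1. For clones minus vector lines all 11 lay above 0, with a median of 0.52, while 49% of all tested genes did. Of these Bst2 had signals of 2213 in MTf 6 and 2763 in MTf 4, against 1800.3 in vector 2 and 1628 in vector 1, and Rsad2 signals of 298 in MTf 6 and 416 in MTf 4, against 236 in vector 2 and 179.6 in vector 1. Fibroblast markers, 7 genes, had medians of -0.39 for MTf 6 minus MTf 4 and 0.26 for vector 2 minus vector 1. Over all 22519 probe sets the arrays of MTf 4 and vector 2 correlated at 0.975 and those of MTf 6 and vector 1 at 0.975, above the 0.961 of the 2 clones and the 0.969 of the 2 vector lines. The part of DNA replication genes, interferon genes, fibroblast markers and these whole-array likenesses in the order of the lysosomal genes was not tested. In these lists 0 genes passed between clones and vector lines with limma. At an unadjusted p under 0.05, the interferon gene Bst2 did, and 0 genes did in any other list of further lysosomal, autophagy, cholesterol or replication genes.

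**Figure D5:**
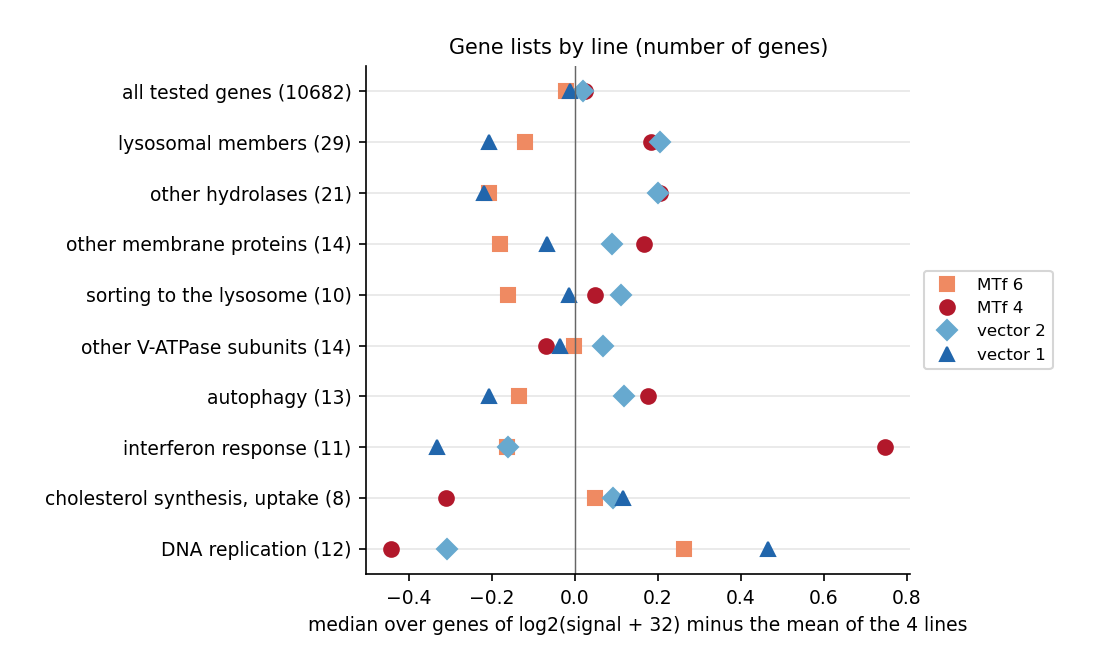
Median over the genes of each list (number of tested genes in brackets) of log2(signal + 32) minus the mean of the 4 lines, by line (1 array each). Lysosomal members, other hydrolases and autophagy genes stand above 0 in MTf 4 and vector 2 and below it in MTf 6 and vector 1, DNA replication genes stand the other way round, and interferon genes stand apart in MTf 4.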

How the data were processed

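The deposited values are linear intensity per probe set. Per the submitters' processing notes the software was GCOS 1.3, whose settings were not given in the sources used here. No detection calls entered the analysis. Groups came from the labels. All arrays had the same 2%-trimmed mean and were used as deposited. Of 45101 probe sets 64 were controls. The platform annotation gave 34945 of the others 1 gene, 932 several and 9160 none used here. Symbols were updated by gene ID to GRCm38.p6.

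Signals were converted to log2(signal + 32), an offset that damps dim signals. A filter kept those whose mean reached the median of all but the control probe sets, a signal of about 196. The 22519 that passed were fitted with limma 3.58.1 in R 4.3.3 (lmFit, eBayes with a trend) with Benjamini-Hochberg adjustment. The code was tested on simulated data. Each gene was taken by its tested probe set with the highest mean, called the brightest. With 2 lines per group the number of arrays limits precision. Settings tried were offsets of 16 and 64, no filter, quantile normalization, no trend, the mean of all tested probe sets of a gene, and leaving out each array.

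Members and lists were chosen with earlier results of these data known. All members could be named, and of each other list up to 4 genes with the smallest unadjusted p.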

Additional observations from a re-analysis of the deposited data

Results flagged for a closer look

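Outside the tested probe sets, 1 dim probe set of Ppt1 gave signals of 225 in MTf 6 and 202 in MTf 4, against 97.7 in vector 2 and 22.7 in vector 1. On signal + 32, MTf 4 exceeded vector 2 by 1.80-fold, the narrowest gap between the kinds of line. It was looked at because it had been left out of the test as too dim and both clones exceeded both vector lines. Among the 19 member probe sets below the filter it was the only one with a gap of at least 1.5-fold in that direction. Of all 22518 probe sets below the filter 3.71% had such a gap, so 1 of 19 is near the background. The 3 tested probe sets of Ppt1 differed by 0.17, 0.07 and 0.01 (log2) between clones and vector lines.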

How the results depend on the processing

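No member probe set was called by limma under any setting run, with 1 of 53 under an unadjusted 0.05 in the reported fit. The number called over all probe sets was 1 as reported, 0 with no filter, 0 with no trend and between 2 and 25 with an array left out. The median over members, clones minus vector lines, lay between -0.21 (without vector 1) and 0.20 (without vector 2) with an array left out and between -0.02 and 0.05 otherwise. Without MTf 4 it was -0.14 and without MTf 6 0.18. For Meltf the log2 difference lay between 2.36 and 2.67 with an array left out, and it passed without MTf 4, without MTf 6 and without vector 2. Member probe sets at least 2-fold apart between the clones numbered 9 as reported and with offset 16, 7 with offset 64, 6 with quantile normalization and 19 with no filter. Between the vector lines they numbered 1 under each of these but 8 with no filter. The medians within each kind of line, checked under settings added after the data were seen, lay between -0.34 and -0.33 for the clones and between 0.36 and 0.37 for the vector lines. With the mean of all tested probe sets the difference turned its sign for Npc2 (-0.045), Ctsz (-0.0031), Gaa (-0.11) and Ctsh (-0.0021), through the other probe sets averaged in. Offsets, filter, quantile normalization and trend turned no sign among the 29 members and 21 other named genes. With an array left out, differences of either sign were found, as ranges, for Ctsl (-0.044 to 0.30), Ctsb (-0.61 to 0.31), Npc2 (-0.083 to 0.21), Ctsz (-0.14 to 0.32), Psap (-0.084 to 0.75), Cst3 (-0.28 to 0.18), Tpp1 (-0.21 to 0.23), Lamp1 (-0.059 to 0.16), Hexa (-0.0018 to 0.29), Atp6v0d1 (-0.23 to 0.089), Ctsd (-0.27 to 0.22), Lgmn (-0.39 to 0.022), Ppt1 (-0.049 to 0.39), Gaa (-0.21 to 0.39), Gusb (-0.40 to 0.20), Lipa (-0.32 to 0.21), Man2b1 (-0.60 to 0.43), Glb1 (-0.52 to 0.23), Neu1 (-0.24 to 0.23), Ctsh (-0.57 to 0.67), Npc1 (-0.29 to 0.16) and Gga3 (-2.01 to 0.58). Such fits hold 1 array in a group, which is assumed to vary like the others. No paired analysis was possible because the clones and the vector lines share no numbers.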
